A study of Mus musculus with 2 samples.

Results

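The 5 genes described here, Gad1, Gad2, Slc32a1, Slc17a6 and Slc17a7, are the classical markers of GABA and glutamate transmission, taken by name from the 32285 genes of the deposited matrix. Their RNA counts and the accessibility of their start sites were followed across 1 RNA library and 1 chromatin accessibility library that share barcodes, made by an assay the series calls SPARC-seq. Both libraries came from E18.5 brain of C57BL/6 mice homozygous for a Ctcf mutation, which the labels describe as CTCF-R567W made by CRISPR/Cas9 editing. Neither the number of embryos nor the section was given in the sources used here, and no wild-type library was analysed here, so nothing below measures an effect of the mutation.

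GABA is the main inhibitory transmitter of the brain and glutamate the main excitatory one. Glutamate decarboxylases make GABA from glutamate, and a vesicular transporter then loads it into synaptic vesicles, as vesicular glutamate transporters do for glutamate. Neurons that release GABA carry the decarboxylases and the GABA transporter together, whereas most glutamatergic neurons carry one of the glutamate transporters. CTCF, the protein mutated in these animals, binds a defined DNA motif and shapes chromatin loops.

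The matrix held 1993 barcodes, and 1992 were kept with 8711132 UMIs (unique RNA molecules counted), a median of 4157 per barcode. A barcode is called a spot here. The barcodes combined 50 possible first and 50 possible second parts of 8 bases, which is read here as a grid of positions. This reading is an inference from the barcodes, and a spot may hold several cells. The order of the parts on the tissue was not given in the sources used here. The kept spots had a median of 21705 accessibility fragments. RNA of tissues other than brain was present in the library. A list of 15 skeletal muscle genes summed to between 3846 and 6978 counts per 1000000 UMIs (CPM) in 40 second barcode parts and to between 13229 and 19207 in the other 6, which are called muscle-rich below. Each interval given below is at the 95% level and covers counting error alone, since there was 1 library of each kind and no replicate.

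Gad1 and Gad2, the decarboxylases that synthesise GABA, had 610 and 748 UMIs in the kept spots, or 70.0 CPM (exact Poisson interval 64.6 to 75.8) and 85.9 CPM (79.8 to 92.2). Slc32a1, the vesicular GABA transporter, had 456 UMIs, or 52.3 CPM (47.7 to 57.4). Slc17a6, the vesicular glutamate transporter of many subcortical neurons, had 617 UMIs, or 70.8 CPM (65.3 to 76.6). Slc17a7, the transporter best known from mature cortex and hippocampus, had 66 UMIs, or 7.58 CPM (5.86 to 9.64). All 5 genes lie on the plus strand of GRCm38, at chr2:70553072-70602014 for Gad1, chr2:22622205-22693874 for Gad2, chr2:158610767-158615748 for Slc32a1, chr7:51622006-51671119 for Slc17a6 and chr7:45163949-45176142 for Slc17a7 in the GENCODE annotation.

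Levels between genes were compared per length. Per kilobase of merged exons, Slc32a1 was the highest at 163 UMIs (148 to 179), followed by Gad2 at 127 (118 to 137) and Slc17a6 at 114 (105 to 124). The intervals of Slc32a1 and Gad2 did not overlap, and those of Gad2 and Slc17a6 did. Gad1 followed at 79.9 UMIs per kilobase of exon (73.64 to 86.4) and Slc17a7 was the lowest at 12.2 (9.47 to 15.6). Per kilobase of the whole gene body the order changed. Slc32a1, a gene of only 4.98 kb, had 91.5 UMIs (83.3 to 100.3). The long genes Gad1, Slc17a6 and Gad2, which span 48.9, 49.1 and 71.7 kb, had 12.5, 12.6 and 10.4 UMIs per kilobase of gene body. Slc17a7 had 5.41. Slc32a1 was therefore first and Slc17a7 last on both scales, while the order of the 3 genes in between depended on the length used. Without length scaling, Slc32a1 lay below Gad2, Slc17a6 and Gad1, at 52.3 CPM against 85.9, 70.8 and 70.0. Whether UMI counts grow with gene length in this assay was not tested, so the first place of Slc32a1 holds for the length scales only. Whether reads in introns were counted is not given in the sources used here. Gad1 overlaps the antisense gene Gad1os, which had 66 UMIs of its own, and Slc32a1 overlaps the antisense gene Gm14205, which had 0.

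**Figure D1:**
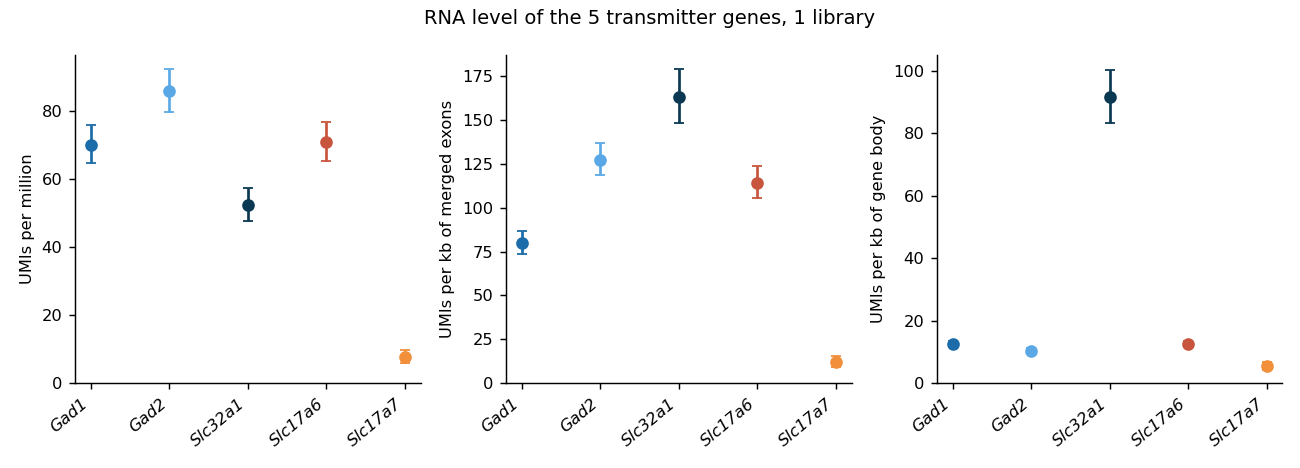
RNA of the 5 genes in the kept spots of 1 library, as CPM (left), per kilobase of merged exons (middle) and per kilobase of gene body (right), with points for the value and bars for the 95% exact Poisson interval. The CPM panel is not scaled by length. In both panels that are, Slc32a1 is the highest and Slc17a7 the lowest.

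The accessibility of the start sites gave a second reading of the same genes. Fragments were counted within 1000 bp of each start site. Gad2 had 200 promoter fragments (173 to 230), Slc32a1 184 (158 to 213), Gad1 162 (138 to 189) and Slc17a6 148 (125 to 174). The median protein-coding gene had 159. Slc17a7 had 69 fragments (53.7 to 87.3). Among 21702 protein-coding genes these counts stood at percentile 57.0 for Gad2, 54.3 for Slc32a1, 50.3 for Gad1, 47.9 for Slc17a6 and 30.9 for Slc17a7. The Slc32a1 window also held the start of the non-coding gene Gm14204, which runs in the opposite direction.

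The deposited peaks showed where around each start site the chromatin was open. A peak covered the start site of Gad2 (from -472 to 433 bp relative to it, 254 cut sites), of Slc32a1 (from -262 to 611 bp, 185 cut sites) and of Slc17a6 (from -436 to 308 bp, 183 cut sites). No peak covered the start site of Gad1. Its nearest peak lay upstream, from -1283 to -398 bp, with 181 cut sites. Another annotated transcript of Gad1 begins before that peak, so the peak lies upstream of the start site used here but inside the annotated gene. No peak covered the start site of Slc17a7 either, where the nearest one lay from -2206 to -1328 bp. That peak had 643 cut sites, at percentile 95.8 of all peaks, and it held no annotated gene start. It raised the Slc17a7 count to 422 fragments once the window was widened to 2000 bp.

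**Figure D2:**
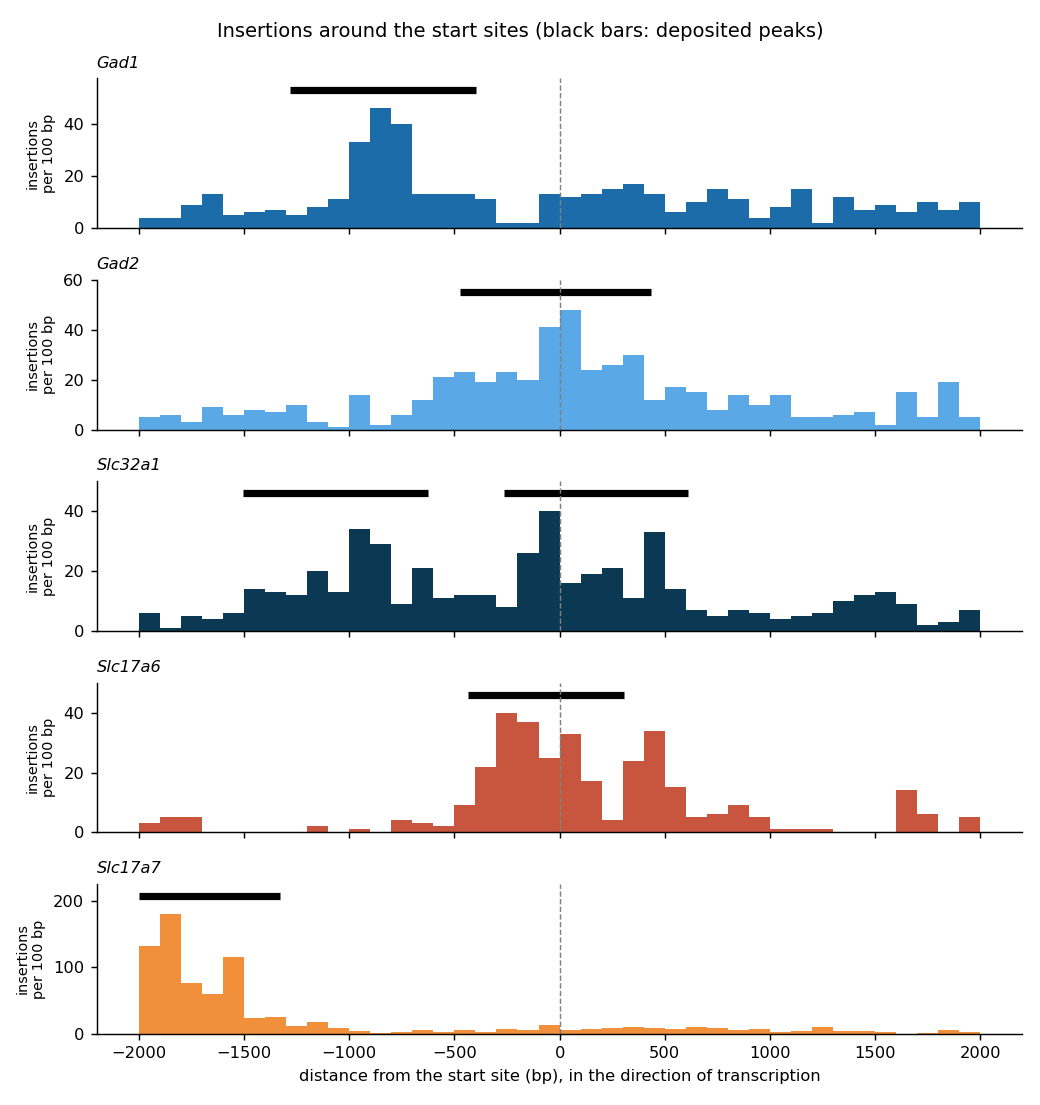
Insertions per 100 bp within 2000 bp of the start site of each gene in the kept spots, with the start site at 0 and the deposited peaks as black bars. The vertical scale differs between panels. Gad2, Slc32a1 and Slc17a6 have a peak over the start site, whereas the peak of Gad1 lies upstream and the start site of Slc17a7 is flanked only by a distant, larger peak.

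The promoter sequences of the 5 genes are shown because their start sites differed in this way. They were taken from RefSeq (GRCm38.p6) and run 5′ to 3′ on the plus strand, from 250 bases before to 50 bases after the RefSeq start. Capitals mark the GC box GGGCGG, which was found in 35.7% of 32841 RefSeq promoters of the same length, and the TATA box TATAAA, found in 13.6%. Both were searched on both strands, so the reverse complement is marked where it was found.
Gad1, chr2:70561879-70562178: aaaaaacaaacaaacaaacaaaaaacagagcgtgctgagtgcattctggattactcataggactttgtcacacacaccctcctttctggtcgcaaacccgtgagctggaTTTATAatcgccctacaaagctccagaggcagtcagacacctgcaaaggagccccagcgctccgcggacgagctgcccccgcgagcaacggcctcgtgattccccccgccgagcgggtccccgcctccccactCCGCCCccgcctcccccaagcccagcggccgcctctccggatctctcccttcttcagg
Gad2, chr2:22622077-22622376: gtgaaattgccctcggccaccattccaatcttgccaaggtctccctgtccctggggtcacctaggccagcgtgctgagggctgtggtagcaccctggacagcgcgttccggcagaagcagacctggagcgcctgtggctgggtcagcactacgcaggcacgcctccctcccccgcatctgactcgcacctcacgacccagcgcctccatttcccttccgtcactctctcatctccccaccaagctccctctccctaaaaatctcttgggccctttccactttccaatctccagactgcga
Slc32a1, chr2:158610508-158610807: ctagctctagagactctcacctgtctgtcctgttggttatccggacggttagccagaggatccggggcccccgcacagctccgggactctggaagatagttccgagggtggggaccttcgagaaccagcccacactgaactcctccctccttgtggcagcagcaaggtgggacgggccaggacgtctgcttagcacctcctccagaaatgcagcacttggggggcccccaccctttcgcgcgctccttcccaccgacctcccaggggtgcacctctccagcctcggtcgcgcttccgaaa
Slc17a6, chr7:51621580-51621879: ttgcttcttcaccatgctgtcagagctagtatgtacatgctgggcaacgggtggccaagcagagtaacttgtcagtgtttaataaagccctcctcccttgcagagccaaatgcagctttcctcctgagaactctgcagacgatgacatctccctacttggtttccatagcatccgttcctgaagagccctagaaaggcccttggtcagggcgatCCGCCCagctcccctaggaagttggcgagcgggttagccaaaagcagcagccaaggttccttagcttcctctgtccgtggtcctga
Slc17a7, chr7:45163671-45163970: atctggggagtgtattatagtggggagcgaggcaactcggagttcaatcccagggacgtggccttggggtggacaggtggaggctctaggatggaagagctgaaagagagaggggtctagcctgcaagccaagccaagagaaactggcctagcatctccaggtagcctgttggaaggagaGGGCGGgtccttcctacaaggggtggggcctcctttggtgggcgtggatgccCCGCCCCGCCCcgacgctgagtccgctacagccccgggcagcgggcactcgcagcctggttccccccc

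The promoters of the 3 GABA genes held between 14 and 21 CpG dinucleotides, that of Slc17a7 13 and that of Slc17a6 8, against a median of 7 over all RefSeq promoters. A GC box was present 3 times in the Slc17a7 promoter, of which a pair overlap, once each in Gad1 and Slc17a6, and not in Gad2 or Slc32a1. Of the 5 promoters, only that of Gad1 held the letters TATAAA, and these lay on the minus strand, against the direction of the gene. The match is not read as a working TATA box. The homeodomain core TAATTA, found in 5.29% of RefSeq promoters, was in none of the 5 windows. The RefSeq starts of Gad1 and Gad2 lie 87 and 122 bp after the GENCODE starts used for counting. Those of Slc32a1, Slc17a7 and Slc17a6 lie at -9, -28 and -176 bp from them. The window shown for Slc17a6 therefore ends before the start site used for its fragments and peak. Slc17a6 has 2 entries among the RefSeq promoters, and 1 is shown. Absence of these letters from a window says nothing of the factors that bind there.

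The core of the known CTCF motif, CCA and AG and GGC with 2 bases of any kind between each, was also searched on both strands in all 21 peaks that lie within 5 kb of the gene bodies. This search was added after the sequence of the peak upstream of Gad1 had been seen. The core was found in 4 of the 21 peaks. These were all 3 peaks of Gad1 and the large peak upstream of Slc17a7, and none of the peaks of Gad2, Slc32a1 or Slc17a6 held it. In the 3 Gad1 peaks the match lay within the middle 300 bases, so 3 of the 21 middle windows held it. These 3 include the window whose sequence prompted the search. Windows of that length held the core in 4.25% of 91150 peaks of the series and in 2.43% of the RefSeq promoters. No such share was taken for whole peaks, so the 4 of 21 has no background here. Windows of 80 bases around the matches are shown with the core in capitals, read from the plus strand of GRCm38.p6.
Gad1 far upstream peak, chr2:70558294-70558373: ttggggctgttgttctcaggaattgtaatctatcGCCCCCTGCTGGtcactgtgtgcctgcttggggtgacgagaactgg
Gad1 near upstream peak, chr2:70561165-70561244: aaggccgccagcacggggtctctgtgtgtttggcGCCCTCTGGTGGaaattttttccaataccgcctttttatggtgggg
Gad1 gene body peak, chr2:70592664-70592743: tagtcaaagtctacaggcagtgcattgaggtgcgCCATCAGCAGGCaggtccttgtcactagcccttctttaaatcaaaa
Slc17a7 upstream peak, chr7:45162344-45162423: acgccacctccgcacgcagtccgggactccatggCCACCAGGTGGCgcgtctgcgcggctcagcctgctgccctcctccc
The matches began at -3714, -843 and 30656 bp from the Gad1 start site and at -1571 bp from the Slc17a7 start site. The matches upstream of the Gad1 start site lay on the minus strand and the others on the plus strand. The 3 Gad1 peaks had 124, 181 and 171 cut sites, against a median of 105 over all peaks. CTCF binding was not measured in these libraries, so a match describes the letters only.

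Most spots had no UMI of any given member. A UMI of Gad2 was present in 616 of 1992 spots, or 30.9% (Clopper-Pearson interval 28.9 to 33.0). Gad1 was present in 24.9% (23.0 to 26.9) and Slc17a6 in 24.8% (23.0 to 26.8). Slc32a1 was present in 19.6% (17.9 to 21.4) and Slc17a7 in 3.21% (2.48 to 4.08). Most of these spots held a single UMI, and the highest count in any spot was 5 for Gad1. After thinning each of the 1831 spots with at least 2000 UMIs to 2000, the shares were 16.5% for Gad2, 12.8% for Gad1, 13.1% for Slc17a6, 10.4% for Slc32a1 and 1.44% for Slc17a7. In the spots of the muscle-rich parts, 279 in all, the thinned shares were 12.3% for Gad2, 10.6% for Gad1, 9.68% for Slc17a6, 5.61% for Slc32a1 and 1.35% for Slc17a7. Each was lower than over all spots and none was 0. No class of spots known to lack these genes could be separated, so the share of detections that came from free RNA was not measured.

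At least 1 of the 5 genes was seen in 1331 spots, or 66.8% (64.7 to 68.9). Both a GABA gene and a glutamate transporter were seen in 343 spots, or 17.2% (15.6 to 18.9). A GABA gene alone was seen in 788 spots and a glutamate transporter alone in 200. The spots with both had a median of 5124 UMIs and those with none of the 5 genes a median of 3483, so depth moved with these classes and co-detection was compared at matched depth.

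At matched depth, the pairs of members were found together about as often as independent draws give. The measure was the share of spots with both genes after thinning to 2000 UMIs, over the product of both single shares. Intervals came from the deposited counts, with independence taken within 10 bins of spots by UMI total. Gad1 and Gad2, which GABA neurons carry together, had a thinned ratio of 0.949. In the deposited counts they shared 162 spots against 166 for independent draws, a ratio of 0.974 (0.829 to 1.14). Gad1 and Slc32a1 had a thinned ratio of 1.13 and shared 121 spots against 107, a ratio of 1.14 (0.943 to 1.36). Gad2 and Slc32a1 had a thinned ratio of 1.03 and shared 124 against 129, a ratio of 0.960 (0.798 to 1.14). Pairs of opposite transmitters gave values in the same range. Gad1 and Slc17a6 had a thinned ratio of 1.149 and shared 151 spots against 139, a ratio of 1.08 (0.919 to 1.27). Gad2 and Slc17a6 had a thinned ratio of 0.890 and shared 159 against 167, a ratio of 0.951 (0.809 to 1.11). Slc32a1 and Slc17a6 had a thinned ratio of 1.10 and shared 116 against 107, a ratio of 1.08 (0.894 to 1.30). The 4 pairs with Slc17a7 rested on 15 to 23 shared spots, with thinned ratios between 0.888 and 1.34. The binned interval of each of the 10 pairs included 1. A GABA gene and a glutamate transporter shared 343 spots against 334, a ratio of 1.03 (0.922 to 1.14).

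Without any correction for depth, detection of one gene went with higher shares of the other. Among the 496 spots with Gad1, 32.7% also had Gad2 (28.5 to 37.0), against 30.3% of those without Gad1 (28.02 to 32.7). Slc32a1 was found in 24.4% of the spots with Gad1 (20.7 to 28.4) and in 17.98% of those without (16.1 to 20.02). Slc17a6 was found in 30.4% of the spots with Gad1 (26.4 to 34.7) and in 23.0% of those without (20.9 to 25.2). Spots with Gad1 had a median of 4829 UMIs and those without it 3974, and the part of depth in these shares is what the ratios above take out.

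The ratio in the 10 depth bins was also taken for 5 pairs of genes that are known to share a cell type, chosen after the values of the members had been seen. Cldn5 and Flt1 of endothelium had a ratio of 1.03 (0.878 to 1.196). Myh3 and Acta1 of skeletal muscle had 1.002 (0.935 to 1.07), but Acta1 was in 1726 of the 1992 spots, so that this ratio could not exceed 1.11 and says little. The highest ratio possible was between 2.95 and 4.62 for the 10 pairs of members. Neurod2 and Neurod6 of cortical neurons had 1.1997 (0.915 to 1.54), and Lhx1 and Lhx5 had 1.27 (0.948 to 1.67). Dlx1 and Dlx6 of forebrain GABA lineages had 0.827 (0.413 to 1.48) on only 11 shared spots. Their thinned ratio was 1.31, on the other side of 1. The thinned ratios of the other pairs of this kind were between 0.996 and 1.19. The interval of each of these 5 pairs included 1 as well. The members' binned ratios with Fabp7 and Vim of glia and with Myh3 lay between 0.940 and 1.08, where up to 1.71 or more was possible, and the highest was that of Gad1 with Myh3 (0.955 to 1.21). Stmn2, Rbfox3, Col1a1, Hbb-bs and Meg3 were in at least 80.8% of spots, so their ratios with the members had little room to leave 1 and are not read. A shared spot does not show a shared cell, and a ratio near 1 does not show separate cells.

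**Figure D3:**
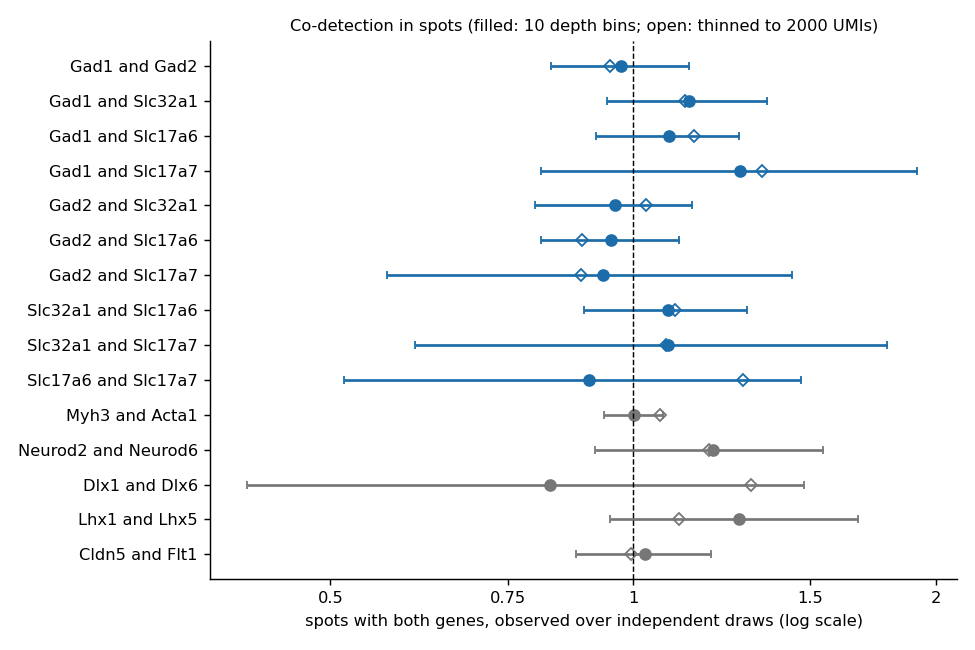
Spots with both genes of a pair over the number that independent draws give, on a log axis, for the 10 pairs of members (blue) and 5 pairs known to share a cell type (grey). Filled points use 10 depth bins with 95% exact Poisson intervals of the shared count, open diamonds use spots thinned to 2000 UMIs, and every interval includes 1.

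Along the second barcode part, read as one axis of the grid, Gad1, Gad2 and Slc17a6 varied somewhat more than counting error alone, and so did Slc32a1 as long as the muscle-rich parts were included. Levels were taken in the 46 second parts with at least 10 kept spots. Gad1 ranged from 23.9 to 136 CPM with a median of 69.2. Gad2 ranged from 33.8 to 169 CPM with a median of 81.9. Slc32a1 ranged from 14.1 to 102 CPM with a median of 53.3. Slc17a6 ranged from 0 to 148 CPM with a median of 70.1, and its 0 came from a part with only 12 spots, where the interval reached 124 CPM. Without the parts under 20 spots, its lowest level was 14.1 CPM. Slc17a7 ranged from 0 to 33.1 CPM with a median of 6.46. The median part held between 9.5 and 16.5 UMIs of each of the 4 more abundant genes, so single parts were imprecise. The interval of a part included the overall level in 43 of 46 parts for Gad1, 41 for Gad2, 42 for Slc32a1, 43 for Slc17a6 and 44 for Slc17a7.

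The spread was summarised by a dispersion ratio, the squared deviations of the parts over their expected counts, which is 1 for counting error alone. It was 1.88 for Slc17a6, 1.78 for Gad2, 1.61 for Gad1, 1.49 for Slc32a1 and 1.03 for Slc17a7. Without the 6 muscle-rich parts the ratio of Slc32a1 fell to 1.05, whereas Gad1 and Gad2 had 1.66 and Slc17a6 had 1.61. None of the 5 genes reached 2, whereas 10.4% of the 12940 genes with at least 50 UMIs did. Among the 2503 genes with 400 to 800 UMIs, which brackets the 4 more abundant members, 6.83% did, and the median was 1.34. In that band Slc17a6 stood at percentile 90.6, Gad2 at 87.9, Gad1 at 78.5 and Slc32a1 at 67.8. Along the 50 first parts the ratios of the members were lower, at 1.146 for Slc17a6, 1.148 for Slc32a1, 1.05 for Gad1, 0.899 for Gad2 and 0.863 for Slc17a7. None of the 5 reached 2 there, whereas 0.927% of all genes and 0.319% of those with 400 to 800 UMIs did.

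**Figure D4:**
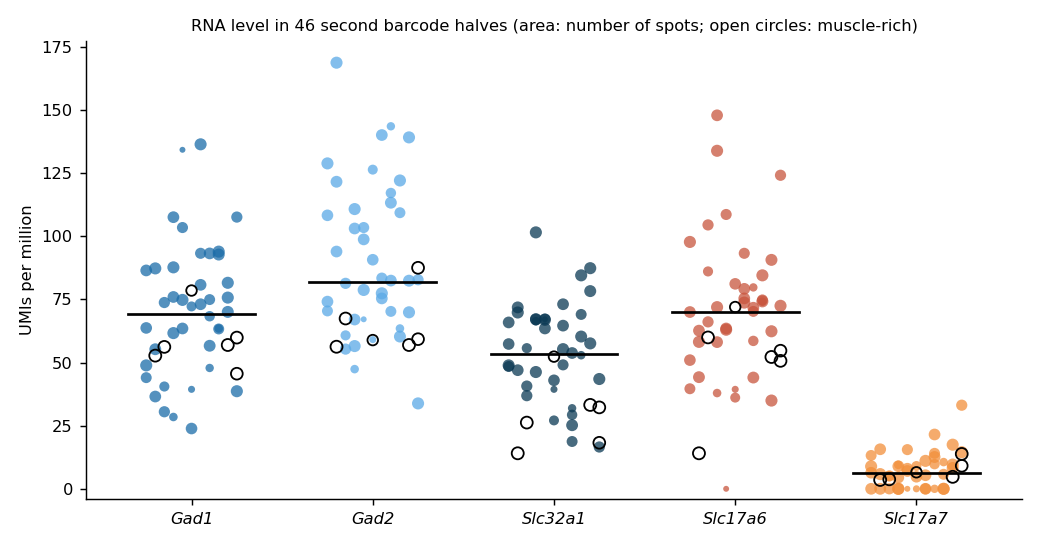
RNA level of each gene, in CPM, in the 46 second barcode parts with at least 10 kept spots, with the area of a point giving the number of spots, open circles the 6 muscle-rich parts and black lines the median over parts. Most of the muscle-rich parts lie below the median for Gad1, Gad2, Slc32a1 and Slc17a6, and the lowest Slc17a6 point rests on 12 spots.

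Most members were lower in the muscle-rich parts. Slc32a1 had 29.9 CPM there (21.8 to 40.03) and 57.0 CPM in the other parts (51.6 to 62.8), a ratio of 0.525 (0.377 to 0.715). Gad2 had 63.8 against 90.5 CPM, a ratio of 0.705 (0.563 to 0.875), and Slc17a6 had 50.5 against 75.1 CPM, a ratio of 0.673 (0.522 to 0.857). Gad1 had 59.2 against 72.3 CPM, a ratio of 0.818 (0.646 to 1.03) whose interval included 1, as did that of Slc17a7. Slc32a1 was the only member at least 1.5-fold lower, against 5.71% of 7931 genes with at least 200 UMIs, and none was 1.5-fold higher, against 5.98%. The parts were picked by their muscle RNA, and 12 neuron genes without a transmitter role had a ratio of 0.824 (0.809 to 0.840) in the same comparison. Fewer neurons, less RNA per neuron and more RNA of other tissues in the UMI total cannot be told apart in such counts.

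Promoter fragments, which played no part in picking the muscle-rich parts, were lower there as well for the 4 more abundant genes. Slc32a1 had 15.8 CPM of promoter fragments there and 34.5 elsewhere, a ratio of 0.458 (0.285 to 0.706). Gad2 had 21.0 against 36.2, a ratio of 0.581 (0.385 to 0.852). Slc17a6 had 16.4 against 26.5, a ratio of 0.620 (0.386 to 0.959), and Gad1 had 19.1 against 28.7, a ratio of 0.665 (0.429 to 0.9999). Such a drop was not rare among promoters. Of 7434 protein-coding genes with 100 to 300 promoter fragments, 14.1% were at least 1.5-fold lower in the muscle-rich parts, as these 4 genes were, and 13.4% as much higher. An interval wholly below 1 was found for 15.4% of them and one wholly above 1 for 18.0%, with a median ratio of 1.01. Slc32a1 stood at percentile 3.63 of these genes, Gad2 at 8.72, Slc17a6 at 10.9 and Gad1 at 13.9. Slc17a7 ran the other way, with 17.1 against 9.27 CPM, a ratio of 1.84 (1.09 to 3.07) on 26 and 43 fragments. Slc32a1 had the lowest ratio of the 5 in both RNA and accessibility, but in each its interval overlapped those of Gad1, Gad2 and Slc17a6. Its promoter window also held the start of Gm14204, which had 227 UMIs of its own.

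The share of GABA genes among the UMIs of the 5 genes was within counting error of its overall value in most barcode parts. GABA genes made up 1812 of 2493 UMIs of the 5 genes in the 46 second parts, or 72.7% (70.9 to 74.4). The share per part ranged from 56.8% (41.0 to 71.7, of 44 UMIs) to 100% (63.1 to 100, of 8 UMIs) with a median of 73.63%. The interval of a part included the overall share in 43 of 46 second parts and in 46 of 50 first parts. The dispersion ratio of the share was 1.202 along the second parts and 1.22 along the first. The summed GABA genes themselves had a dispersion ratio of 2.56 along the second parts. This ratio grows with the number of UMIs, so it is not compared with the 1.202 of the share. The spread beyond counting error, relative to the mean, was 20.4% for the sum, 23.5% for Gad1, 20.9% for Gad2 and 24.1% for Slc32a1.

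The members were then followed over spots grouped by accessibility alone. The clusters, A1 to A10 by size, were built from the peak counts without RNA. Slc17a6 was highest in cluster A8, with 120 CPM (89.1 to 157, 51 UMIs) against 68.3 CPM in the other spots, a ratio of 1.75 (1.29 to 2.33). It was at least 1.5-fold higher there, as were 3.11% of 7931 genes, and stood at percentile 99.2 of them. A8 was picked as the highest of 10 clusters for Slc17a6, and neither the share nor the percentile allows for that choice. In the other direction 8.40% of genes were 1.5-fold lower in A8. Gad1, Gad2 and Slc32a1 had 63.3, 72.7 and 42.2 CPM in A8, with ratios of 0.9001, 0.840 and 0.799 whose intervals included 1. The GABA share of the 5 genes was 58.9% in A8 (49.9 to 67.5) and between 71.6% and 75.3% in every other cluster except A9, where it was 59.4% (46.4 to 71.5). Slc17a6 UMIs enter this share, so its low value in A8 is not separate from the choice of A8. The 72 spots of A8 lay in 11 first and 11 second parts. With a coarser clustering the highest cluster of Slc17a6 was at 116 CPM, and with another seed at 119 CPM. The highest cluster was picked anew each time, and its overlap with the spots of A8 is not given here.

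The regional lists were then read in A8. The list of 24 thalamic, midbrain and hindbrain glutamatergic genes summed to 2777 CPM there against 1988 elsewhere, a ratio of 1.40 (1.32 to 1.48). The list is not specific to glutamatergic neurons, since it shares Calb2 with the list of interneuron and striatal genes and Pax6 with that of radial glia. Of its 19 genes with at least 50 UMIs, 3 were at least 1.5-fold higher and 5 at least 1.5-fold lower, with a median ratio of 1.09. Over all 12944 genes with at least 50 UMIs, 7.22% were as much higher in A8 and 16.7% as much lower, with a median ratio of 0.967. Those of the list that were higher were Prox1 at 303 against 72.4 CPM, Lhx9 at 98.5 against 34.5 and Tcf7l2 at 887 against 382, transcription factors with known roles in the thalamus. Most of the difference in the sum of the list lay in Tcf7l2 and Prox1. Prox1 and Lhx9 are named here after their values were seen. Those lower, likewise named afterwards, were Pou4f1, Barhl1, Barhl2, Foxb1 and Pax6, with between 0 and 16 UMIs in A8. Rora, another abundant gene of the list, had 654 against 543 CPM, whereas Ebf1 had 253 against 338. The cortical glutamatergic list had a ratio of 0.863 (0.797 to 0.934), with Neurod6, also named after its value was seen, at 11.7 against 29.7 CPM (5 UMIs). The neuron list without transmitter genes was close to the other spots at 1.09 (1.05 to 1.12). Lists of other tissues differed in A8 as well. The choroid plexus list had a ratio of 1.57 (1.46 to 1.69), with its gene Ttr at 1949 against 1221 CPM. The muscle list had a ratio of 0.664, the fibroblast and bone list 0.571 and the pituitary list 0.403. The transcription factors of GABA lineages had 0.790 (0.696 to 0.894). The part of these tissues in the Slc17a6 result was not tested.

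The GABA genes were higher in A1, and the 4 more abundant members were lower in A2. In A1, of 373 spots, Gad1 had 84.4 CPM (71.4 to 98.9) against 66.3 elsewhere, Gad2 had 99.99 (85.9 to 116) against 82.2, and Slc32a1 had 65.4 (54.1 to 78.3) against 49.0. The ratios were 1.27, 1.22 and 1.33, each with an interval above 1, and that of Slc17a6 was 1.145 (0.942 to 1.38). None of them reached 1.5-fold, as did 0.214% of genes upward and 1.59% downward. A1 was the highest cluster of Gad2 and of the summed GABA genes, and the intervals do not allow for that choice. The neuron list had a ratio of 1.09 there (1.08 to 1.11) and the muscle list 0.724. In A2, of 331 spots, Slc32a1 had 29.5 CPM (21.5 to 39.4) against 57.2, a ratio of 0.515 (0.370 to 0.702), and Slc17a6 had 42.6 (32.9 to 54.3) against 76.8, a ratio of 0.554 (0.422 to 0.717). Gad1 and Gad2 had ratios of 0.700 (0.545 to 0.888) and 0.785 (0.634 to 0.965). Slc32a1 and Slc17a6 were at least 1.5-fold lower, against 5.02% of genes (5.57% were as much higher), and stood at percentiles 0.567 and 0.958. Of the A2 spots 68.3% lay in the muscle-rich parts, the muscle list was at 13393 CPM against 5166, and the neuron list had a ratio of 0.845. Most A2 spots are thus spots of the muscle-rich parts. Cluster A6 was higher for Slc32a1, with 71.7 CPM (55.1 to 91.7) against 50.2. The ratio of 1.43 (1.08 to 1.87) did not reach 1.5-fold, as 0.593% of genes did upward and 2.62% downward. A6 was the highest cluster of Slc32a1, and A2 was the lowest of both Slc32a1 and Slc17a6. The shares and percentiles given for A6 and A2 do not allow for that choice. The neuron list had a ratio of 1.08 in A6 (1.06 to 1.10), the muscle list 0.745, the fibroblast and bone list 0.652, the choroid plexus list 0.609 and the pituitary list 0.424, and their part in the Slc32a1 result was not tested. Slc17a7 had between 0 and 14 UMIs in each cluster, with intervals that all overlapped.

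**Figure D5:**
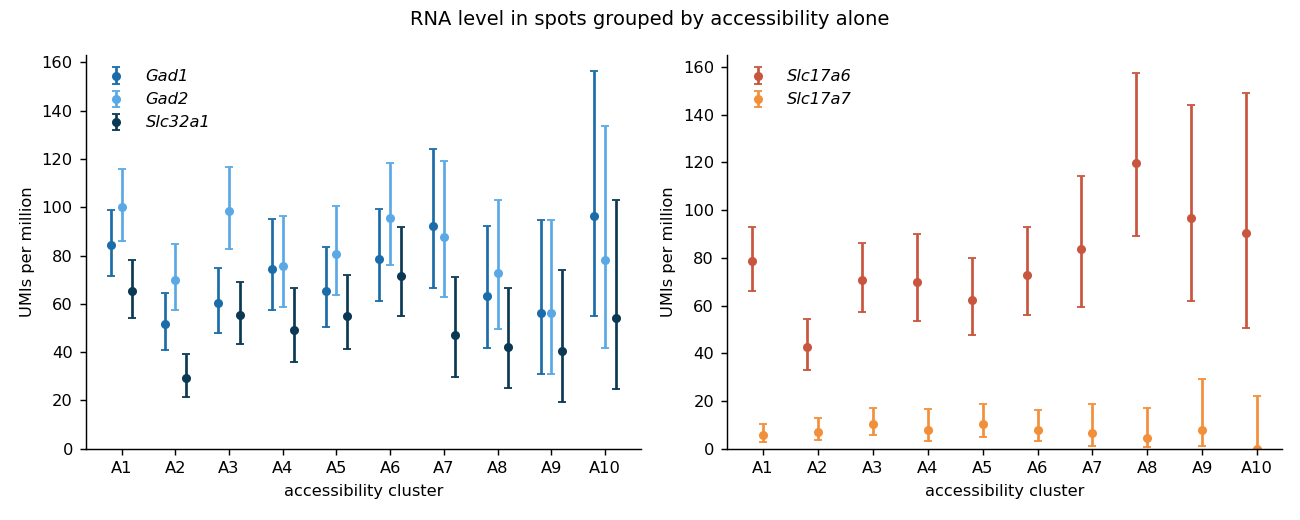
RNA level in CPM, with 95% exact Poisson intervals, of the GABA genes (left) and the vesicular glutamate transporters (right) in 10 clusters of spots built from accessibility alone, in order of size. Slc17a6 is highest in A8 at 120, and Slc32a1 and Slc17a6 are lowest in A2 at 29.5 and 42.6.

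Spots with RNA of a gene were compared with those without it for the accessibility of the promoter, in CPM of all promoter fragments. For Gad2 the promoter had 40.8 CPM in spots with Gad2 RNA and 28.4 in spots without, a ratio of 1.44 (1.07 to 1.92) on 83 and 117 fragments. For Slc17a6 the promoter had 28.5 against 22.3 CPM, a ratio of 1.27 (0.884 to 1.82). Slc32a1 had 0.968 (0.653 to 1.40), Gad1 0.795 (0.536 to 1.16) and Slc17a7 1.14 (0.229 to 3.47) on 3 fragments in spots with its RNA. None of the 4 more abundant genes reached 1.5-fold in either direction, as did 1.29% (higher) and 1.19% (lower) of 1089 genes with similar numbers of UMIs and promoter fragments. The middle 90% of those genes lay between 0.748 and 1.33, and Gad2 stood at percentile 98.0. Of the 25 pairings of a promoter with the RNA of a member, the Gad2 promoter with Gad2 RNA was the only one whose interval did not include 1, and the intervals were not widened for the number of pairings. The lowest ratio was that of the Slc17a6 promoter in spots with Slc32a1 RNA, 0.658 (0.394 to 1.05). With a window of 500 bp the Gad2 ratio was 1.41 (0.997 to 1.97), and with 2000 bp it was 1.30 (1.01 to 1.67).

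The genes whose levels ran most like the members along the second parts were named as a description. For the summed GABA genes these were Pcdh17, Nrxn2, Nnat, Dlgap3, Ndn, Stmn3, Syt11 and Kctd16. Their Pearson r of log2(CPM + 10) was between 0.560 and 0.620 over 46 parts. They were picked as the highest of 7921 genes, whose r had a median of 0.00864 and a 95th percentile of 0.325. The r of the named genes do not allow for that choice. Over the 50 first parts the named genes had r between -0.100 and 0.225. Without the muscle-rich parts their r over the second parts fell to between 0.377 and 0.503. Nrxn2, a neurexin, and Dlgap3, a postsynaptic scaffold, are known to serve synapses, but no shared pattern is read from genes picked by their r. For Slc17a6 the genes were Adcy5, Ap1s1, Slc25a23, Rasgef1b, Aplp1, St8sia2, Rtn3 and Atp6v1e1, with r between 0.707 and 0.739. They too were picked as the highest of 7921 genes, here with a median r of 0.0797 and a 95th percentile of 0.507. Over the first parts r of the genes named for Slc17a6 was between -0.449 for Adcy5 and 0.690 for Ap1s1. The lowest first part held no Slc17a6 UMI, with an interval up to 97.3 CPM, and r without it is not given here. Without both parts under 20 spots, one of which held no Slc17a6 UMI, r over the second parts was between 0.338 and 0.511, a setting added after seeing the data. The points share 1 library and its depth. Among Gad1, Gad2, Slc32a1 and Slc17a6 themselves r over the second parts was between 0.0760 and 0.270. Without both parts under 20 spots it was between 0.161 and 0.357, where Gad1 with Slc17a6 moved from 0.0760 to 0.357 and Slc32a1 with Slc17a6 from 0.156 to 0.307. The summed GABA genes had r = 0.194 with Slc17a6 over all 46 parts and 0.385 without those of under 20 spots. For the same pair r was 0.0647 without the muscle-rich parts and -0.110 over the 50 first parts. These r are weak for such sparse counts, and no pattern is read from them.

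Other genes of the GABA and glutamate pathways were measured in the same spots. Among the GABA genes, the transporter Slc6a11 had 124 CPM (117 to 132), the breakdown enzyme Abat 67.4 (62.0 to 73.1), the transporter Slc6a13 37.9 (33.9 to 42.2), Aldh5a1 13.8 (11.4 to 16.5) and Slc6a12 1.95 (1.14 to 3.12). Slc6a11 and Slc6a13 were the only 2 of the 8 GABA pathway genes with at least 50 UMIs (the 3 members included) whose dispersion ratio along the second parts reached 2, at 2.91 and 3.86, beside the 10.4% of all genes. These values are not scaled by length and set no order between genes. Of the glutamate genes, the glial uptake transporters Slc1a3 and Slc1a2 had 186 and 161 CPM, and the glutamine transporters Slc38a1 and Slc38a2 had 123 and 116. Glutamine synthetase Glul had 86.6 CPM and the neuronal transporter Slc1a1 60.2. Slc1a6, Gls2 and the remaining vesicular transporter Slc17a8 had 25.3, 3.44 and 3.21 CPM. Slc1a3 alone of 10 such genes reached a dispersion ratio of 2, at 2.36. Among the transcription factors of GABA lineages, 3 of 13 reached 2, namely Meis2 at 3.69 and, named after their values were seen, Isl1 at 2.73 and Gata3 at 2.38. Among the thalamic, midbrain and hindbrain glutamatergic genes 14 of 19 did, with Tcf7l2 at 8.07 and Ebf1 at 5.87. Beside these counts, 10.4% of all genes with at least 50 UMIs reached 2, and 6.83% of those with 400 to 800 UMIs. No member did. The ratio grows with the number of UMIs, so the lists and the members are not compared by it.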

How the data were processed

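One RNA and one chromatin accessibility library of the same barcodes were used, with groups taken from the labels. The authors deposited raw counts, UMIs per gene and cut sites per peak in one matrix, and a list of fragments, made with cellranger-arc 2.0.1 on mm10 per the file headers. The submitters' processing notes also name Seurat 4.0. The paper at hand does not describe this assay, and how reads in introns or on the antisense strand were counted is not given in the sources used here.

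Kept barcodes had between 500 and 6000 genes and no more than 20% of UMIs from mitochondrial genes (907 to 12442 UMIs and 5759 to 87572 fragments per spot), and second barcode parts with at least 10 kept spots were used. No doublet caller was run, since spots may hold several cells. Levels carry exact Poisson intervals, shares Clopper-Pearson intervals and ratios conditional binomial intervals. With 1 library of each kind no test was made. Promoter CPM is per 1000000 fragments within 1000 bp of any gene start. Clusters came from peak counts (latent semantic components 2 to 30, 15 neighbours, Leiden resolution 1). The named genes were the 5 members, the genes of both transmitter lists (some are not reported here), the 4 genes with most UMIs of each other list and the 8 genes of highest r to the GABA genes and to Slc17a6. The members and lists were chosen with earlier results of these data known.

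On simulated data the dispersion ratio reached 2 for 90.0% of 200 genes with a planted variation of 50% of the mean. It did so for 0.0556% of 1800 genes without planted variation. Along the second parts the estimated spread beyond counting error was 23.5% of the mean for Gad1, 20.9% for Gad2, 24.1% for Slc32a1 and 26.4% for Slc17a6. Variation of that smaller size was not simulated, so a ratio under 2 does not show that a member is flat. Other spot filters, thinning depths, windows, scales, clusterings and pseudocounts were tried, and the parts under 20 spots, the pairs of one cell type and the CTCF letters were added after seeing the data. Tools were Python 3.11.15, NumPy 2.4.6, SciPy 1.17.1, pandas 2.3.3, scikit-learn 1.9.0, leidenalg 0.10.2, igraph 0.11.9, scanpy 1.11.5 and matplotlib 3.10.9.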

Additional observations from a re-analysis of the deposited data

Results flagged for a closer look

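The fragment list also held 507 barcodes that are not in the RNA matrix, with 5833396 fragments. Promoter fragments of the members were present there above the limit that a count of 0 allows. Gad1 had 9 such fragments (17.7 CPM of promoter fragments), Gad2 17 (33.4), Slc32a1 14 (27.5), Slc17a6 11 (21.6) and Slc17a7 10 (19.6). The intervals of Gad1, Gad2, Slc32a1 and Slc17a6 included their values in the kept spots, and that of Slc17a7 (9.41 to 36.1) included its 11.2. No RNA was counted for these barcodes.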

How the results depend on the processing

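Of 242 alternative values over 75 results, 208 stayed within the interval of the reported value, 33 moved outside it and 1 changed direction. Among those that stayed, 5 could not move, since scaling by all fragments cancels in the ratio to the median coding gene. Among those that moved were 5 shares of spots at each of the other thinning depths, which change with depth by construction. Ratios with a reference of 1 changed side in 11 cases. In 10 of them the interval of the reported value already included 1. These were 6 co-detection ratios, namely Gad1 with Gad2 (1.01) and Gad2 with Slc17a6 (1.005) at 4000 UMIs, Gad2 with Slc32a1 (0.960) and Slc17a6 with Slc17a7 (0.903) in depth bins, and Slc32a1 with Slc17a7 at 1000 UMIs (0.986) and without the muscle-rich parts (0.902). The others were the promoter ratio of Slc32a1 at 2000 bp (1.05), that of Slc17a7 at 500 bp (0.594), and the dispersion ratio of Slc17a7 along the first parts (0.863) and with at least 2000 UMIs per spot (0.806). The change of direction was that of the dispersion ratio of Gad2, at 1.78 (1.23 to 2.83) along the second parts and 0.899 along the first. The first parts are another axis, so this is not a reversal of the same measurement. Thinning to 1000 UMIs gave shares of spots of 6.64% for Gad1, 8.61% for Gad2, 5.17% for Slc32a1, 6.58% for Slc17a6 and 0.760% for Slc17a7, and thinning to 4000 gave 23.8%, 27.6%, 18.3%, 24.9% and 3.02% in the same order. A promoter window of 500 bp gave 14.2 CPM and percentile 40.2 for Gad1, 23.6 CPM for Slc32a1 and percentile 53.6 for Slc17a6. A window of 2000 bp gave percentile 41.0 for Slc17a6, and 52.4 CPM and percentile 78.2 for Slc17a7, whose wider window takes in the large upstream peak. Along the first barcode parts the dispersion ratio was 1.05 for Gad1, 0.899 for Gad2 and 1.146 for Slc17a6. The GABA share was 68.8% with Gad1 and Gad2 against Slc17a6 only. The other values that moved were dispersion ratios of summed genes and correlations with Slc17a6. No paired analysis was possible because each kind of library had 1 sample. Depth limited Slc17a7 most, with 66 UMIs in all, and limited single barcode parts, clusters under 100 spots and promoter counts of single genes.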
